A study of Mus musculus with 6 samples.

Results

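The BCL2 family genes described here are 10 regulators of mitochondrial apoptosis, picked by gene symbol from a table of 21878 genes. They comprise 4 protective genes (Bcl2, Bcl2l1, Bcl2l2 and Mcl1), 2 pore-forming genes (Bak1 and Bok) and 4 BH3-only genes (Bid, Bad, Bcl2l11 and Bmf). All 10 were in the table, and all 10 reached the mean FPKM of 0.1 required for testing. FPKM, the fragment count of a gene per unit of its length and of library depth, is corrected for gene length, so levels of different genes can be set side by side within a library.

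RNA was measured in HT22 cells, an immortalized mouse hippocampal neuronal line, as the input libraries of an m6A immunoprecipitation experiment. There were 3 control libraries and 3 libraries of the Al group, which was exposed to aluminum maltolate at 120 µM; maltolate is a ligand that keeps aluminum in solution. The sample titles mark the libraries only C and M. M was read as the Al group because the series names a control and an Al-treated group and no other; its design text gives only a range of doses, and the methods name 120 µM for the sequenced cells. The methods define the control group as cells in medium alone and list a group with maltol but no aluminum separately; no library carries the name of the latter. The replicates are described as biological, with all 6 libraries from 1 cell line, so P values measure the spread between cultures of that line. Of 12 neuronal marker genes, 9 fell under a mean of 0.1 FPKM, and Snap25, Nefm and Neurod1 were at 0 in every library. The neuronal markers together summed to 7.66 to 9.47 FPKM in the control group and 4.13 to 7.54 in the Al group, against 2456 to 4018 and 2926 to 4119 for 7 fibroblast markers, most of it from the collagens Col1a1, Col1a2 and Col3a1. Of these 7, 3 were called lower and 1 higher under the main scaling, at the thresholds given below, with a median log2 fold change of -0.66. Of all genes tested, 24.4% were called lower and 26.2% higher. The 5 astrocyte markers summed to 14.0 to 23.3 FPKM in the control group and 1.56 to 2.70 in the Al group, with Aqp4 at 0 throughout. Nearly all of that sum was Slc1a3 (13.8 to 22.8 and 1.19 to 2.43 FPKM), while Gfap was at most 0.022 in the control group and 0.058 to 0.101 in the Al group. Microglia markers (7 genes, P2ry12 at 0 throughout and Tmem119 with nearly all of the sum) summed to 39.4 to 49.0 and 22.3 to 72.7 FPKM, and the 6 oligodendrocyte markers to 0.200 to 0.365 and 0.404 to 1.31. Of the markers that passed the filter, 1 of 3 astrocyte markers was called lower, and 1 of 4 microglia and 1 of 2 oligodendrocyte markers higher. The 3 neuronal markers that passed were not called. The part of these shifts in the results was not tested.

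Commitment to mitochondrial apoptosis depends on which BCL2 family proteins bind each other on the outer mitochondrial membrane. Pore-forming proteins open the membrane and let cytochrome c out, protective proteins hold them in check, and BH3-only proteins respond to stress by binding the protective proteins or by activating the pore formers directly. In neurons, BCL-XL (Bcl2l1) and MCL-1 are the best known survival factors, and BIM (Bcl2l11) is a classical inducer of death after withdrawal of growth factors.

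In the Al group, RNA of Bcl2 and of all 4 BH3-only genes was called lower. Bcl2l11 was called under 3 of 4 scalings of the libraries and the others under all 4. Bcl2l1 was called higher under 3 of the 4 scalings, and Mcl1 under the main scaling only. The log2 fold change of Mcl1 was 0.02 with libraries set to equal sums. Of all genes tested, 24.4% were called lower under the main scaling, 42.0% as deposited, 53.1% with libraries set to equal sums and 24.2% after quantile normalization. The shares called higher were 26.2%, 14.0%, 9.32% and 22.2%, in the same order. Bcl2l2, Bak1 and Bok did not pass the thresholds under the main scaling; Bok was called lower under 2 other scalings and Bcl2l2 under 1. The promoters of the 6 genes that carry this pattern are shown first, namely the 4 BH3-only genes that moved together and the 2 protective genes with the largest fall and the largest rise under the main scaling. Each is the part of the RefSeq promoter window (GRCm38.p6) that lies upstream of the annotated gene, from the window of the most upstream start where a gene has several. Bcl2 is given as chr1:106714275-106714540 on the minus strand, Bcl2l1 as chr2:152831729-152831978 on the minus strand, Bid as chr6:120916854-120917074 on the minus strand, Bad as chr19:6941611-6941860 on the plus strand, Bcl2l11 as chr2:128125788-128126037 on the plus strand and Bmf as chr2:118549688-118549936 on the minus strand. Capitals mark the GC box GGGCGG, the core of the site bound by SP1, on either strand (CCGCCC when on the other strand).
Bcl2: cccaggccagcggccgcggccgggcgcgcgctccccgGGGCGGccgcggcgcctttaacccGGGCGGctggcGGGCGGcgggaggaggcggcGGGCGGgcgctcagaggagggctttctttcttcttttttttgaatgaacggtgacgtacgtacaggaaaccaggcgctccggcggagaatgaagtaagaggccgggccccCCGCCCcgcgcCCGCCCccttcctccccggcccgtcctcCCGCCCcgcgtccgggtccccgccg
Bcl2l1: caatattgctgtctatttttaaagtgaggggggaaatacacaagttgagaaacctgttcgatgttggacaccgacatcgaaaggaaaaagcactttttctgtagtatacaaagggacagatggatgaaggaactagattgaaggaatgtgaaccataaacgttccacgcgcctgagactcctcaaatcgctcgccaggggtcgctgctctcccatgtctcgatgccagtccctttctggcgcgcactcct
Bid: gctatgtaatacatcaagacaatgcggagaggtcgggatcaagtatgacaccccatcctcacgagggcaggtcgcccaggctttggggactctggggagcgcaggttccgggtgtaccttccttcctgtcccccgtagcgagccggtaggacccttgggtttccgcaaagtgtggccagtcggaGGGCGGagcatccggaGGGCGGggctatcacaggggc
Bad: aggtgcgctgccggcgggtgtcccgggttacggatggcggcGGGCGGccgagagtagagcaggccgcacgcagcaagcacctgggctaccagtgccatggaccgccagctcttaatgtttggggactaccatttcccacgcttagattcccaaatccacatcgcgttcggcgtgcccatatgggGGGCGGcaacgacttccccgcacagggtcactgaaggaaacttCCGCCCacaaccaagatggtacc
Bcl2l11: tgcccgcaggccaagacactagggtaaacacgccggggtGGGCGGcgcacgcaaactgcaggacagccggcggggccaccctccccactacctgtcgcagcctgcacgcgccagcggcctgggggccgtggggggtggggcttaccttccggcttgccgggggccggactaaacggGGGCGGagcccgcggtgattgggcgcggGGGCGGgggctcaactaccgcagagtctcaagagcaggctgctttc
Bmf: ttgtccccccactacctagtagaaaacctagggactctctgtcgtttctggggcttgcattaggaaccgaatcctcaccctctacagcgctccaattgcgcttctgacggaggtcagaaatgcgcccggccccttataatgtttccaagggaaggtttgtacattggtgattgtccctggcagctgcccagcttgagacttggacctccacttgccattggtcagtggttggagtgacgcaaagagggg

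The printed Bcl2 stretch holds 7 GC boxes and is 75.6% G and C, whereas that of Bcl2l1 holds 0 and is 47.6% G and C. Those of Bid, Bad, Bcl2l11 and Bmf hold 2, 3, 3 and 0. Over the full windows of 300 bases, GC boxes numbered 7 in Bcl2, 4 in Bad, 3 in Bid, 3 in Bcl2l11 and 1 each in Bmf, Bok, Mcl1 and Bcl2l2, with 0 in Bcl2l1 and Bak1. A GC box was present in 35.9% of the 27025 RefSeq windows, 1 per gene. The median G and C content of these windows was 52.7%, and that of the Mcl1 window, also a gene called higher, was 65.7%. The CCAAT box (CCAAT, either strand) occurred 3 times in Bmf and 1 time in Bcl2l11, and in 38.0% of all windows. The FOXO motif TGTTTAC occurred 1 time, in Bcl2l11, and in 3.52% of all windows. No match to the E-box CACGTG (7.24% of windows), the AP-1 motif TGANTCA (7.92%) or the cyclic AMP response element TGACGTCA (1.85%) was present in the 10 windows. None of the motif matches in these windows overlapped another motif searched. All 5 genes that fell have a GC box in the window, as do 3 genes that did not.

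Under the main scaling, 2 of the 10 genes were called higher in the Al group and 5 were called lower. Of all 12889 genes tested, 26.2% were called higher and 24.4% lower. A gene was called when the unadjusted P in limma was under 0.05 and its fold change on the log2 scale was larger than 0.58 in size, the thresholds named in the methods. Fold changes are differences of log2 values, after each FPKM was divided by the size factor of its library (median of ratios) and 0.1 was added. The median change was -0.55 over the 10 genes and 0.03 over all genes tested. Without overlap between the groups in scaled FPKM were 2 genes higher in the Al group (35.1% of all genes tested) and 5 genes lower (33.1%), the same 7 that were called. The scaled values of these 7 gave P = 0.1 in an exact two-sided permutation test, the smallest P that 3 against 3 libraries allow.

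Depth and composition of the libraries moved with the groups. The FPKM were computed over 38059492 to 44556768 reads in the control libraries and 21125631 to 26670978 in the Al libraries, and the FPKM of a library summed to 361083 to 385447 and 428696 to 479075. Relative to the main scaling, the median change of all genes was shifted by -0.46 for FPKM as deposited, by -0.77 when libraries were set to equal sums (TPM) and by -0.06 after quantile normalization. As deposited, 1 of the 10 genes was called higher (14.0% of all genes) and 6 lower (42.0%). With equal sums, 0 were called higher (9.32% of all genes) and 7 lower (53.1%). After quantile normalization, 1 was called higher (22.2% of all genes) and 4 lower (24.2%). Under the main scaling, each of the 6 fits that left out 1 library called 2 of the 10 genes higher and 5 lower, and 3191 to 3509 of all 12889 genes tested higher and 2974 to 3292 lower. The part of depth in the results was not tested. Whether RNA per cell or the number of cells changed cannot be told apart in such bulk samples.

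**Figure D1:**
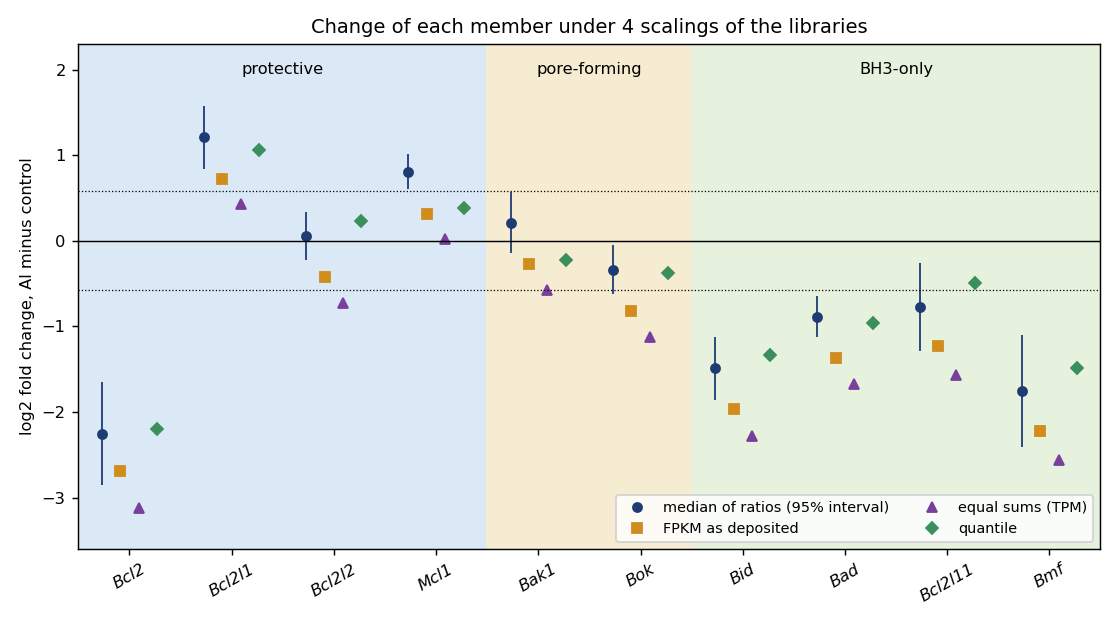
Log2 fold change (Al minus control) of the 10 genes under 4 scalings of the libraries, with 95% intervals from limma for the median-of-ratios scaling and dotted lines at 0.58 in either direction. Bcl2, Bid, Bad, Bcl2l11 and Bmf lie below 0 under all 4 scalings, Bcl2l1 and Mcl1 lie above 0, and Bcl2l2 and Bak1 change sign between scalings.

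The make-up of the 10 genes within a library, taken from deposited FPKM, is the same under any scaling that divides a library by 1 factor, which quantile normalization does not. Protective genes made up 37.2, 38.4 and 38.5% of the summed FPKM of the 10 genes in control libraries 1 to 3 and 53.8, 56.0 and 57.8% in Al libraries 1 to 3. BH3-only genes made up 24.6, 25.0 and 22.4% in the control group and 7.51, 9.17 and 11.01% in the Al group. For both groups of genes, each Al library lay outside the control range. Pore-forming genes made up 38.2, 36.6 and 39.1% in the control group and 38.7, 34.9 and 31.2% in the Al group, and these ranges overlapped. In deposited FPKM the 10 genes summed to 211 ± 6.32 (SD, n = 3) in the control group and 177 ± 4.37 (SD, n = 3) in the Al group.

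**Figure D2:**
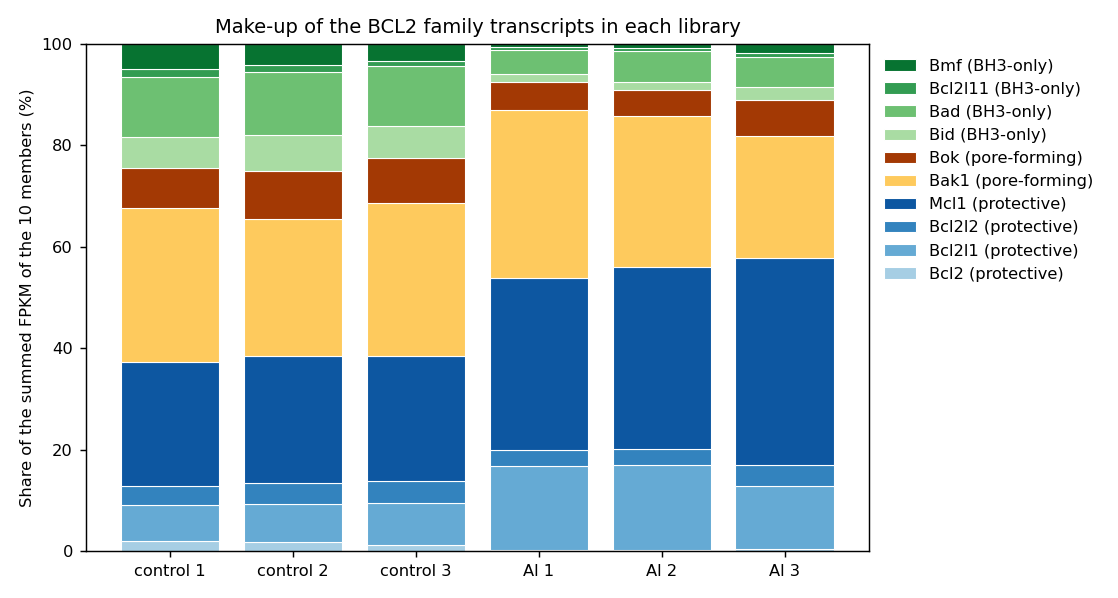
Share of each gene in the summed FPKM of the 10 genes (percent), 1 stacked bar per library, blue for protective, yellow to brown for pore-forming and green for BH3-only genes. The blue part takes 37.2 to 38.5% of the control bars and 53.8 to 57.8% of the Al bars, and the green part takes 22.4 to 25.0% and 7.51 to 11.01%.

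Among the protective genes, Bcl2 (chromosome 1 from 106538178 to 106714274, minus strand), the founding member of the family, was measured at 3.96, 3.91 and 2.39 FPKM in control libraries 1 to 3 and at 0.454, 0.305 and 0.573 FPKM in Al libraries 1 to 3. All Al libraries lay far below the lowest control library. The mean scaled FPKM was 2.87 ± 0.726 (SD, n = 3) in the control group and 0.518 ± 0.127 (SD, n = 3) in the Al group, a 5.54-fold difference. The log2 fold change was -2.25 (SE 0.26, adjusted P = 0.000136, limma), and it was called under all 4 scalings. With 1 in place of 0.1 added before the log, the change was -1.34, smaller than the -1.41 of Bmf under the same setting. The Al values rest on 89, 49 and 89 reads, against 783 to 1248 reads in the control libraries.

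Bcl2l1 (chromosome 2 from 152780668 to 152831728, minus strand) encodes BCL-XL and, by alternative splicing, the shorter BCL-XS that promotes death; the gene-level values do not separate them. It was measured at 14.8, 16.5 and 17.4 FPKM in control libraries 1 to 3 and at 29.0, 29.2 and 22.7 FPKM in Al libraries 1 to 3. The lowest Al library, the third, was still above every control library. Its log2 fold change was 1.21 (SE 0.16, adjusted P = 0.000266), the largest rise of the 10 genes. With libraries set to equal sums the change was 0.43 and not called, while 1.06 after quantile normalization was called.

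Mcl1 (chromosome 3 from 95658788 to 95663176, plus strand) encodes a short-lived protective protein. It was measured at 50.4, 54.7 and 51.6 FPKM in control libraries 1 to 3 and at 59.7, 62.1 and 74.4 FPKM in Al libraries 1 to 3, with no overlap. The log2 fold change of 0.81 (SE 0.09, adjusted P = 0.000110) was called under the main scaling, but the changes of 0.32 as deposited, 0.02 with equal sums and 0.38 after quantile normalization were not. In every library it was the most abundant protective transcript. It took 24.4 to 25.1% of the summed FPKM of the 10 genes in the control group and 33.9 to 40.9% in the Al group.

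Bcl2l2 (chromosome 14 from 54883377 to 54888234, plus strand), which encodes the protective BCL-W, was measured at 7.68, 8.63 and 8.84 FPKM in control libraries 1 to 3 and at 5.68, 5.49 and 7.62 FPKM in Al libraries 1 to 3. As deposited all Al values lay below the control values, although the third, at 7.62 FPKM, stood next to the lowest control. The groups overlapped after scaling, with a log2 fold change of 0.05 (95% interval -0.23 to 0.34, adjusted P = 0.720) that turned to -0.43 as deposited, not called, and to -0.73 with equal sums, where it was called lower (adjusted P = 0.00742). Bcl2l2 is overlapped on its strand by another annotated protein-coding gene that has no row of its own in the table.

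**Figure D3:**
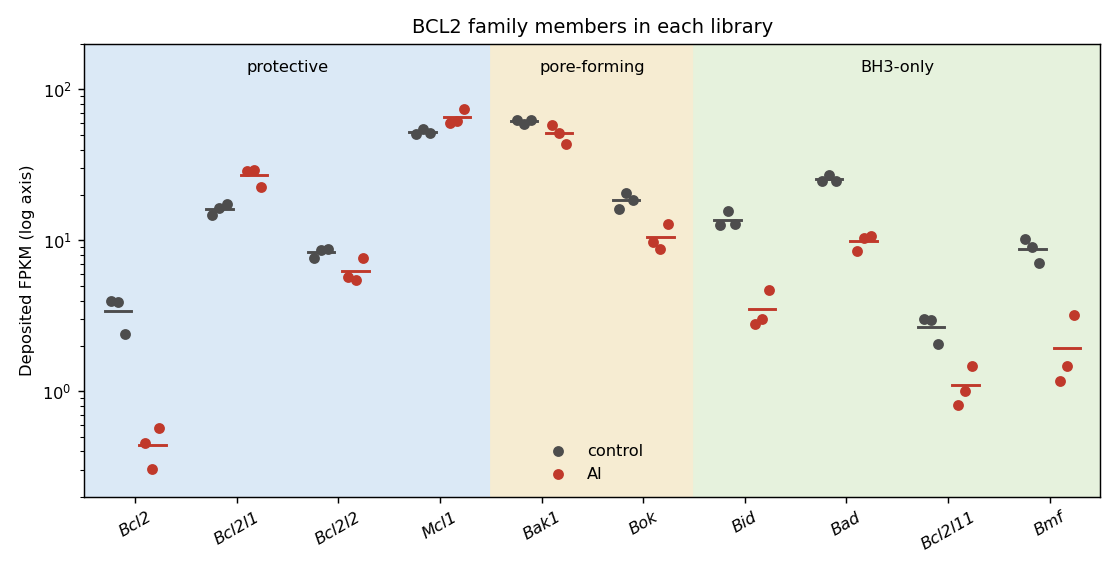
Deposited FPKM (log axis) of the 10 genes, with 1 point per library, 3 control (grey) and 3 Al (red), and a bar at each group mean. The Al points of Bcl2 (0.305 to 0.573 FPKM) and of the BH3-only genes lie below all control points, and those of Bcl2l1 (22.7 to 29.2 FPKM) and Mcl1 lie above them.

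Of the pore-forming genes, Bak1 (chromosome 17 from 27019810 to 27029009, minus strand), whose protein sits in the outer mitochondrial membrane and is bound there by MCL-1 and BCL-XL, was measured at 62.7, 59.3 and 62.8 FPKM in control libraries 1 to 3 and at 58.4, 51.6 and 43.8 FPKM in Al libraries 1 to 3. These deposited values do not overlap, with the Al group lower. After scaling they did overlap, and the log2 fold change was 0.21 (95% interval -0.14 to 0.57, adjusted P = 0.256), against -0.27 as deposited, -0.57 with equal sums and -0.22 after quantile normalization. Leaving out 1 library moved the main value between 0.08 (without Al replicate 1) and 0.40 (without Al replicate 3). Bak1 was called under none of the 4 scalings. It shares part of its locus with Ggnbp1 on the opposite strand, and although the library kit keeps the strand, whether the counting used it is not given in the sources used here.

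Bok (chromosome 1 from 93685660 to 93695764, plus strand) encodes a pore former that the protective proteins hardly restrain. It was measured at 16.2, 20.5 and 18.7 FPKM in control libraries 1 to 3 and at 9.76, 8.83 and 12.9 FPKM in Al libraries 1 to 3. All Al libraries were lower as deposited, but the scaled values overlapped between the groups. The log2 fold change of -0.34 (95% interval -0.63 to -0.04, adjusted P = 0.0465) was smaller than the fold change threshold. It was called lower as deposited (-0.82) and with equal sums (-1.12), and not after quantile normalization (-0.38).

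All 4 BH3-only genes were called lower under the main scaling, where 24.4% of all genes tested were, with a median log2 fold change of -1.19. All 4 kept the call in each of the 6 fits without 1 library, and Bcl2l11 lost it after quantile normalization and with 1 added before the log. Bmf (chromosome 2 from 118528757 to 118549687, minus strand), which binds a dynein light chain and the protective proteins, was measured at 10.3, 8.98 and 7.08 FPKM in control libraries 1 to 3 and at 1.17, 1.48 and 3.20 FPKM in Al libraries 1 to 3. The third Al library was the highest of its group and still below the lowest control library. Its log2 fold change was -1.75 (SE 0.29, adjusted P = 0.000862), and the mean scaled FPKM was 3.30-fold higher in the control group. Leaving out 1 library moved the change between -2.09 and -1.51.

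Bid (chromosome 6 from 120891930 to 120916853, minus strand) links death receptors to mitochondria, since its protein is activated when caspase-8 cuts it. It was measured at 12.7, 15.6 and 12.8 FPKM in control libraries 1 to 3 and at 2.80, 3.02 and 4.69 FPKM in Al libraries 1 to 3. The groups were far apart, and the log2 fold change was -1.49 (SE 0.16, adjusted P = 9.2e-05). Bid overlaps Bcl2l13 on the opposite strand, whose own log2 fold change was 0.31 and not called.

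Bad (chromosome 19 from 6941861 to 6951899, plus strand), whose protein is held by 14-3-3 proteins when phosphorylated and otherwise binds BCL-XL, was the most abundant of these 4 BH3-only transcripts. It was measured at 24.7, 27.1 and 24.8 FPKM in control libraries 1 to 3 and at 8.46, 10.4 and 10.7 FPKM in Al libraries 1 to 3. Spread within both groups was small beside the gap between them. The log2 fold change was -0.89 (SE 0.10, adjusted P = 0.000140). Bad overlaps Gpr137 on the opposite strand.

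Bcl2l11 (chromosome 2 from 128126038 to 128162547, plus strand), the gene of BIM, was measured at 3.001, 2.96 and 2.06 FPKM in control libraries 1 to 3 and at 0.809, 1.01 and 1.47 FPKM in Al libraries 1 to 3. Its groups came closest of the BH3-only genes, though they did not overlap. The log2 fold change of -0.77 (SE 0.23, adjusted P = 0.0163) was called under the main scaling, as deposited (-1.23) and with equal sums (-1.56). It was not called after quantile normalization (-0.49) or with 1 in place of 0.1 added before the log (-0.51).

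The rank of the genes by deposited FPKM differed between the groups. In the control group the order was Bak1, Mcl1, Bad, Bok, Bcl2l1, Bid, Bmf, Bcl2l2, Bcl2 and Bcl2l11. The ranges of neighbours overlapped for Bok and Bcl2l1, Bcl2l1 and Bid, Bmf and Bcl2l2, and Bcl2 and Bcl2l11. In the Al group the order was Mcl1, Bak1, Bcl2l1, Bok, Bad, Bcl2l2, Bid, Bmf, Bcl2l11 and Bcl2, and the ranges of neighbours overlapped for Bok and Bad, Bid and Bmf, and Bmf and Bcl2l11. Mcl1 was thus above Bak1 in all 3 Al libraries and below it in all 3 control libraries.

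Ratios within a library set the opposing genes against each other without any scaling, and they are given as descriptions with no test. The summed FPKM of the protective genes over that of the BH3-only genes was 1.52, 1.53 and 1.72 in control libraries 1 to 3 and 7.16, 6.10 and 5.25 in Al libraries 1 to 3. The mean ratio in the Al group was 3.89 times that in the control group. Protective over pore-forming genes gave 0.974, 1.05 and 0.984 in the control group and 1.39, 1.61 and 1.86 in the Al group, a mean 1.61 times higher. For neither ratio did the groups overlap, also when Mcl1 was left out of the protective sum (3.84 and 1.56 times).

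The shift of both ratios was smaller once the 2 other well expressed members of the canonical family were counted. These were chosen for the sums after their values had been seen. Bax, the pore former that moves to mitochondria from the cytosol, was measured at 36.2, 43.0 and 48.8 FPKM in control libraries 1 to 3 and at 59.9, 60.5 and 63.0 FPKM in Al libraries 1 to 3. Its log2 fold change was 1.02 (SE 0.13, adjusted P = 0.000183), called under the main scaling and quantile normalization but not as deposited (0.53) or with equal sums (0.23). With Bax among the pore formers, the protective sum over the pore-forming sum was 0.655 ± 0.0348 (SD, n = 3) in the control group and 0.807 ± 0.0699 (SD, n = 3) in the Al group, 1.23 times higher. Bbc3, the gene of the BH3-only protein PUMA, was measured at 9.08, 9.14 and 8.80 FPKM in control libraries 1 to 3 and at 11.99, 12.1 and 10.7 FPKM in Al libraries 1 to 3. It thus moved against the other 4 BH3-only genes, with a log2 fold change of 0.85 (SE 0.13, adjusted P = 0.000496) that was not called as deposited (0.36) or with equal sums (0.07). With Bbc3 among the BH3-only genes, the protective over BH3-only ratio was 1.35 ± 0.0858 (SD, n = 3) in the control group and 3.55 ± 0.182 (SD, n = 3) in the Al group, 2.63 times higher.

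Single ratios were taken for 7 pairs whose proteins are known to bind, chosen with results of these data known and only 1 of them with Bcl2. Bcl2l1 to Bad was 0.597, 0.609 and 0.703 in control libraries 1 to 3 and 3.43, 2.81 and 2.13 in Al libraries 1 to 3. Mcl1 to Bid was 3.98, 3.49 and 4.03 in the control group and 21.3, 20.6 and 15.9 in the Al group. In both pairs the third Al library was nearest to the control group. Bcl2l1 to Bak1 was 0.236 to 0.278 and 0.496 to 0.566, and Mcl1 to Bak1 0.804 to 0.921 and 1.02 to 1.70. Bcl2l2 to Bmf was 0.748 to 1.25 and 2.38 to 4.86, and Mcl1 to Bcl2l11 16.8 to 25.0 and 50.5 to 73.7. Bcl2 to Bcl2l11 went the other way, from 1.16 to 1.32 in the control group to 0.301 to 0.561 in the Al group. The 2 protective genes BCL-XL and BCL2 diverged, and Bcl2l1 to Bcl2 was 3.72, 4.21 and 7.28 in control libraries 1 to 3 and 63.8, 95.9 and 39.6 in Al libraries 1 to 3.

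**Figure D4:**
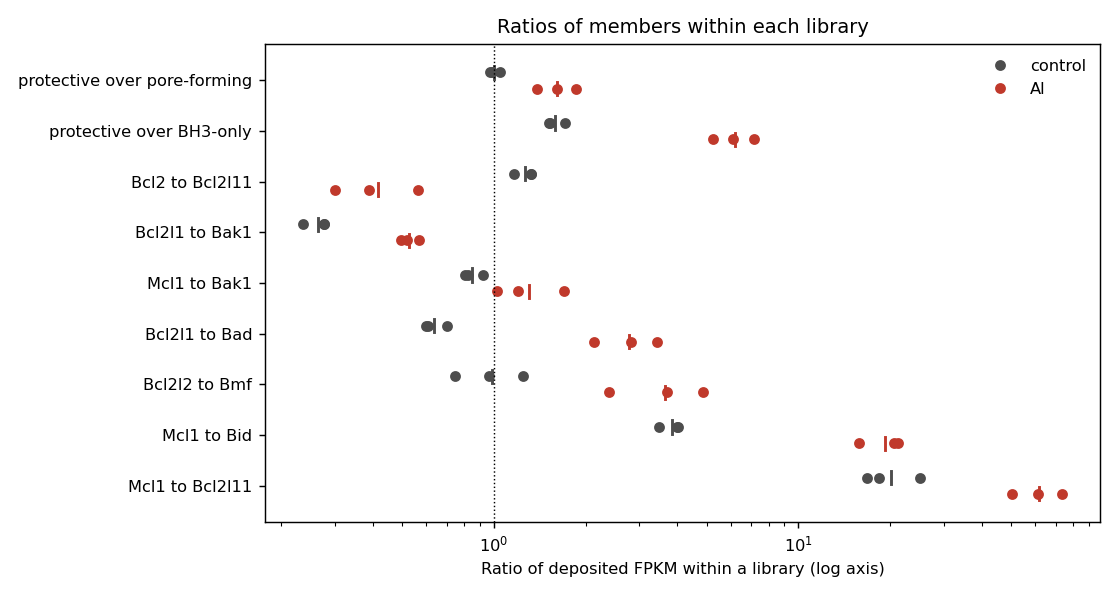
Ratios of deposited FPKM within a library (log axis) for the sums of gene groups and for 7 pairs of genes, 1 point per library, grey for control and red for Al, with a bar at each group mean. Of the 9 ratios, 8 are higher in every Al library than in any control library, and Bcl2 to Bcl2l11 is lower (0.301 to 0.561 against 1.16 to 1.32). The ratios share genes, and the pairs were chosen with results of these data known, only 1 of them with Bcl2. Of all genes tested, 35.1% were higher in the Al group without overlap in scaled FPKM, and 33.1% lower.

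The rest of the canonical family was at or near 0. Pmaip1 (NOXA) and the 3 Bcl2a1 genes in the table (Bcl2a1a, Bcl2a1b and Bcl2a1d) were listed at 0 in all 6 libraries, where a count of 0 allows up to 3 reads. Bcl2l10, Bik and Hrk had at most 7 reads in any library and were not tested, and the related Bcl2l14 likewise. Of 10 BCL2-related genes outside the canonical groups, 9 were in the table and 8 were tested, with 2 called higher and 0 lower under the main scaling, against 26.2% and 24.4% of all genes tested. These were Bcl2l15 (0.0362 to 0.0486 FPKM against 0.140 to 0.438, log2 fold change 1.46, adjusted P = 0.0113), which rests on 7 to 47 reads and whose change was 0.31 and not called with 1 added before the log and 2.65 with 0.01 added, and Bclaf1 (19.8 to 21.0 against 20.2 to 24.5 FPKM, log2 fold change 0.64, adjusted P = 0.000468). Bclaf1, whose protein was found as a binder of the family, was called under the main scaling only, with changes of 0.15 as deposited, 0.49 after quantile normalization and -0.15 with equal sums. Those not called under the main scaling were Bcl2l12 (-0.13), Bcl2l13 (0.31), the mitophagy receptors Bnip3 (-0.02) and Bnip3l (-0.07), the autophagy gene Becn1 (0.52) and Mtch2 (-0.43), the mitochondrial receptor of BID. Bnip3 stood at 53.0 FPKM in the third control library against 19.7 and 20.6 in the other two, and leaving out 1 library moved its change between -0.37 and 0.44. It moved Becn1 between 0.40 and 0.72, with a call in 2 of the 6 fits. Bcl2l12 moved between -0.25 and 0.04 and Bnip3l between -0.21 and 0.05, with no call. Mtch2 was measured at 38.6 to 40.5 FPKM in the control group and 20.3 to 21.3 in the Al group, and it was called lower under the 3 other scalings, as deposited (-0.92), with equal sums (-1.22) and after quantile normalization (-0.67). With equal sums Bcl2l12 (-0.91) and Bnip3l (-0.86) were called lower too, Bcl2l12 also as deposited (-0.61).

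Genes that act around the family were read against the same shares of all genes tested, 26.2% called higher and 24.4% lower under the main scaling. Of 18 binding partners and turnover factors, 6 were called higher and 2 lower, with a median log2 fold change of 0.41. The largest changes among those called were in Sfn, a 14-3-3 protein (log2 fold change 1.48), Bag1, the BCL2-binding co-chaperone (1.26), Trim17, a ubiquitin ligase for MCL-1 (-1.12), and Ywhae, another 14-3-3 protein (1.06). Sfn rests on only 15 to 50 reads per control library and 32 to 47 per Al library. With equal sums Sfn (0.88) and Bag1 (0.47) were not called, and Ywhae was called under the main scaling only (0.57 as deposited, 0.27 with equal sums, 0.33 after quantile normalization). Of 15 kinases and transcription factors that act on members, 1 was called higher and 4 lower, with a median of -0.22. Jun, which can induce Bcl2l11 in neurons, rose from 55.9 ± 6.11 to 128 ± 17.3 FPKM (SD, n = 3 each; log2 fold change 1.67), while Mapk9 (JNK2, -1.20), Gsk3b (-0.94), the kinase that marks MCL-1 for degradation, and Mapk3 (ERK1, -0.73), which phosphorylates BIM, fell. Of 12 genes of mitochondrial release and the apoptosome, 1 was called higher and 5 lower, with a median of -0.40. Casp9, the caspase that the apoptosome activates, fell from 5.24 ± 0.343 to 0.606 ± 0.306 FPKM (SD, n = 3 each; log2 fold change -2.55, adjusted P = 5.4e-05). Its values rest on 38 to 79 reads in the Al libraries, against 773 to 948 in the control libraries. The caspase inhibitor Xiap also fell (-1.38), whereas Cycs, cytochrome c itself, rose by 1.07, a change of 0.29 and not called with equal sums.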

How the data were processed

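Per the methods, the authors trimmed reads with Trimmomatic, removed ribosomal reads with SortMeRNA and used HISAT2 for mapping to GRCm38/mm10. The submitters' processing notes list fastp, HISAT2, HTSeq and GRCm39 instead, and which set made the table is not given in the sources used here. The deposited values are FPKM per gene symbol and library. Gene positions are from GENCODE M21 on GRCm38.

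Genes averaging 0.1 FPKM or more (12889) were fitted with limma 3.58.1 (lmFit, eBayes with trend, R 4.3.3) on log2 FPKM after median-of-ratios scaling over genes averaging 1 FPKM or more, with 0.1 added. Benjamini-Hochberg adjustment ran over all tested genes. The library totals and whole reads were recovered from the spacing of the FPKM values for 17683 of 17688 genes above 0 and used as an alternative with voom; reads carry no molecular identifiers, so a limit of 3 reads at 0 covers counting error only. Both steps were tested on simulated data. Alternatives covered scaling, added constant, filter, trend, thresholds, a replicate block and each library left out. Promoters are from RefSeq. The members and lists were chosen with earlier results of these data known. Named were all 10 members, every tested gene of the other family lists, and at most 4 called genes with the largest change of each further list; 1 gene of these is not reported here. The immunoprecipitated libraries were not analysed here. Python 3.11.15, scipy 1.17.1, pandas 2.3.3 and numpy 2.4.6 were used for the rest.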

Additional observations from a re-analysis of the deposited data

How the results depend on the processing

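Of 160 values of the 10 genes under alternatives, 145 kept their direction and their side of the thresholds, 6 lost a call with no change of sign, 2 gained one with no change of sign and 7 changed sign, among them Bcl2l2 with equal sums, which was also called lower. Genes called higher numbered 1 with FPKM as deposited, 0 with equal sums, 1 after quantile normalization and 1 at a log2 fold change over 1, where 3 were called lower and 3881 of all genes were called in place of 6518. Bcl2l2 turned to -0.43 as deposited, -0.73 with equal sums, and to -0.015 and -0.016 without control replicate 1 and without Al replicate 3, with a range of -0.016 to 0.12 over the fits without 1 library. Bak1 turned to -0.27, -0.57 and -0.22 as deposited, with equal sums and after quantile normalization, and Bclaf1 to -0.15 with equal sums. The cause was not tested. The protective over BH3-only ratio in the Al group was 5.05 times that in the control group without Bad and 2.63 times with Bbc3, and protective over pore-forming was 1.23 times with Bax; the sums with Bbc3 and Bax were added after the data had been seen. Leaving out 1 library kept 2 genes higher and 5 lower in each of 6 fits, which called 3191 to 3509 of all genes higher and 2974 to 3292 lower.

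Libraries with the same replicate number did not deviate together (correlations of -0.03, -0.03 and -0.07), and no library correlated best with its own number. With 3 libraries per group, these correlations cannot show whether the cultures were handled in pairs. With the replicate number as a block, 6475 genes were called in place of 6518, with 2 of the 10 genes higher and 5 lower. Bcl2 rests on 49 to 89 reads per library in the Al group.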
